A study of Mus musculus with 5 samples.

Results

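The genes described here encode the replacement histone variants of the mouse, and the 10 of them were picked by gene name from the 49671 genes in the count table: H2afy, H2afy2, H2afz, H2afv, H2afx, H2afj, H3f3a, H3f3b, H1f0 and H1fx. They were chosen with the level of H2afy, its paralogue and the other variants in these SO− embryos already known, so every SO− against SO+ value of a member is given as a description. No p-value of a member is read, and members called are only counted. RNA was sequenced from single embryos after Cre-mediated deletion of Oct4 (Pou5f1), the pluripotency factor of the epiblast, to compare embryos with and without it at E6.75, around the start of gastrulation. SO+ embryos (n = 2) were Sox2Cre−/−; Oct4 fl/+, so they carried a floxed allele but no Cre. SO− embryos (n = 3) were Sox2Cre+/−; Oct4 fl/−, carrying 1 floxed and 1 null allele, with Cre driven by the Sox2 promoter and acting mainly in the epiblast. All embryos were of mixed strain background, and each sample was the epiblast with its visceral endoderm (VE), dissected by hand from 1 embryo with the extra-embryonic ectoderm (ExE) removed. The SO− arm thus differed from the SO+ arm in Cre and in a null allele as well as in the deletion.

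Most histone genes are switched on in S phase and pack newly made DNA. Replacement variants are also made outside S phase and are exchanged into chromatin that is already assembled. MacroH2A carries a large globular macro domain joined to its histone part and is known for its enrichment on the inactive X chromosome and on silent genes. H2A.Z marks promoters and enhancers, H2A.X is phosphorylated around DNA breaks, H3.3 replaces H3 in transcribed and in some silent chromatin, and H1.0 and H1X are linker histones.

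Several of these proteins are encoded by gene pairs, and a difference in one paralogue can be read only if its reads are not those of the other. The first 90 coding bases of each pair are shown for that reason, from the principal transcripts of GENCODE M21 on GRCm38, with the bases that differ from the partner in capitals.
H2afy: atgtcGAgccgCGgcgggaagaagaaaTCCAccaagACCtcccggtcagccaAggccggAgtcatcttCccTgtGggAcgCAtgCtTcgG
H2afy2: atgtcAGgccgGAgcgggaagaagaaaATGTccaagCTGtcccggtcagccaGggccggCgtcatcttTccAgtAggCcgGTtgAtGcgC
H2afz: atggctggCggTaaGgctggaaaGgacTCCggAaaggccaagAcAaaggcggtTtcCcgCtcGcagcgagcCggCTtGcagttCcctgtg
H2afv: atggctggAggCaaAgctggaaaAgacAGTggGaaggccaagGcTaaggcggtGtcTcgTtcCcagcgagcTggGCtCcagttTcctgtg
H3f3a: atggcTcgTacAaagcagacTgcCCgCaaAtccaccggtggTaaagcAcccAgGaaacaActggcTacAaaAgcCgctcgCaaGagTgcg
H3f3b: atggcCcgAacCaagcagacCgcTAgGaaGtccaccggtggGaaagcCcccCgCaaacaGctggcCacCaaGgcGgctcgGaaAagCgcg

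In these windows the macroH2A pair differed at 22 bases, the H2A.Z pair at 19 and the H3.3 pair at 20. Over the whole coding sequence H2afy and H2afy2 were 69.7% identical, and their longest shared run was 16 bases. The H2A.Z genes were 79.1% identical with a longest shared run of 14 bases, and the H3.3 genes 76.9% with a run of 23 bases. Reads much longer than these runs tell the partners apart. H2afx and H2afj, which encode H2A.X and the divergent H2A.J, were 80.4% identical but shared a run of 51 bases, and 21 and 15 other genes matched them over at least 150 bases at 90% identity or more.

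The libraries held 27047148 to 27538119 counts in SO+ and 1117566 to 4191498 in SO−, so depth moved with genotype and its part in the results was not tested. Levels are given as CPM, counts divided by the library total after TMM scaling, on which scale 3 counts were worth 0.109 to 0.111 CPM in SO+ and 0.723 to 2.68 CPM in SO−. The level of Pou5f1 was 919.5 and 437.0 CPM in SO+, against 28.01, 12.5 and 44.1 CPM in SO−. It fell 21.6-fold (log2 fold change −4.43, SE 0.33, adjusted p = 3.94e-05, edgeR quasi-likelihood test). The log2 fold change was −3.80 without SO+ embryo 1 and −5.06 with a replicate block, and the call was lost with limma-voom (−4.36, adjusted p = 0.0639) and with robust dispersion (−4.43, adjusted p = 0.0988). In tissue of this kind, fewer cells of a type and less RNA per cell cannot be told apart.

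H2afy, the gene of macroH2A1, lies on chromosome 13 (GRCm38, 56073619 to 56136361, minus strand). In SO+ its level was 18.1 and 23.8 CPM, and in SO− it was 81.8, 77.6 and 76.7 CPM. Each SO− embryo was above both SO+ embryos, and the 3 SO− values lay close together although their libraries differed in depth. The means were 20.9 ± 3.99 CPM (SD, n = 2) and 78.7 ± 2.75 CPM (SD, n = 3), a 3.77-fold difference (log2 fold change 1.91, SE 0.18). The thinnest SO− library held 87 H2afy counts, with an exact 95% Poisson interval of 62.2 to 95.8 CPM that covers counting error only. Embryos of a genotype differed by more than counting error over all genes, with a chi-square per degree of freedom of 39.1 between the SO+ embryos and of 2.80 to 5.81 between SO− embryos. This value grows with depth, so it does not compare the spread of the 2 genotypes. Among all 12067 genes tested H2afy ranked 107 from the top by fold change. Counts per gene do not separate its splice forms.

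H2afy2, the gene of macroH2A2, lies on chromosome 10 (61738665 to 61784147, minus strand). It stood at 22.03 and 25.9 CPM in SO+ and at 54.8, 54.4 and 59.3 CPM in SO−. The genotypes did not overlap here either. The means were 24.0 ± 2.75 CPM (SD, n = 2) and 56.2 ± 2.72 CPM (SD, n = 3), which is 2.35-fold (log2 fold change 1.23, SE 0.18) and rank 293 of the 12067 genes. H2afy2 was thus higher in SO− as well, by a smaller fold than H2afy.

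The 2 macroH2A genes were the 2 of 9 tested members with an adjusted p under 0.05 in the edgeR quasi-likelihood test, both higher in SO− and none lower. Over all tested genes 171 (1.42%) were called higher, 112 (0.928%) lower and 283 (2.35%) in either direction. The same contrast chose the members, so nothing is read from that count. Without SO− embryo 1 or SO− embryo 2 the count was 1, as H2afy2 was not called, while its log2 fold change was 1.25 in both cases.

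**Figure D1:**
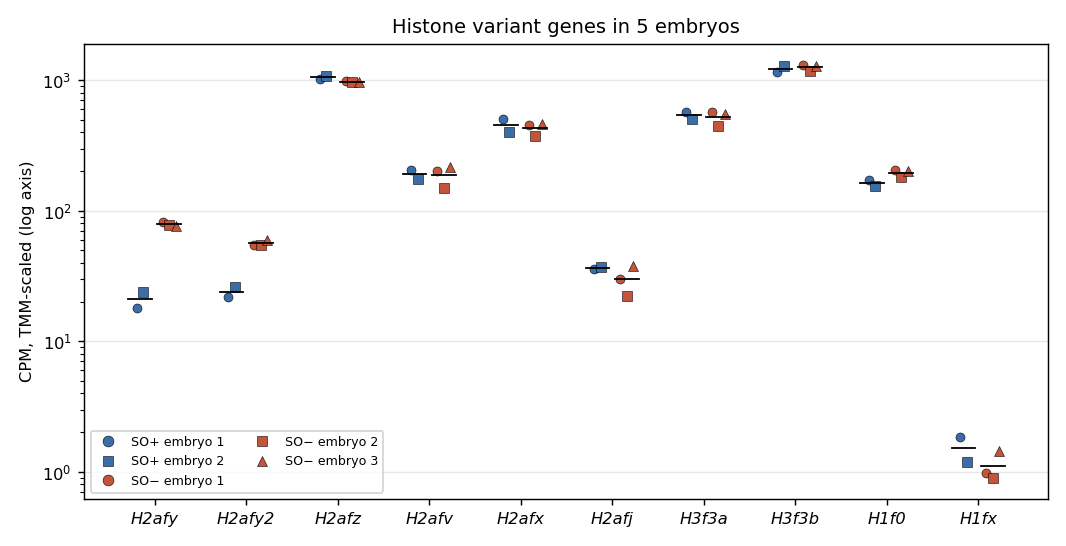
CPM (TMM-scaled, log axis) of the 10 variant genes in the 2 SO+ embryos (blue) and 3 SO− embryos (red), with a point for each embryo and a bar at the mean of each genotype. H2afy and H2afy2 lie higher in every SO− embryo, at 76.7 to 81.8 and 54.4 to 59.3 CPM, while 6 of the other 8 genes overlap between genotypes.

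H2afz encodes the main H2A.Z protein and lies on chromosome 3 (137864487 to 137866922, plus strand). It was at 1020 and 1082 CPM in SO+ and at 993.9, 965.6 and 971.1 CPM in SO−. All 3 SO− embryos were slightly below both SO+ embryos, with a log2 fold change of −0.11 (SE 0.09). Its paralogue H2afv (chromosome 11, 6427229 to 6444443, minus strand) was at 203.9 and 175.6 CPM in SO+ and at 201.0, 149.0 and 215.1 CPM in SO−. The H2afv values of the genotypes overlapped (log2 fold change 0.010, SE 0.14).

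H2afx (chromosome 9, 44334694 to 44336077, plus strand) is a gene of a short single exon whose product signals DNA breaks. It was at 504.2 and 397.9 CPM in SO+ and at 451.4, 372.1 and 461.8 CPM in SO−. The SO+ embryos differed more from each other than the genotype means did (log2 fold change −0.07, SE 0.13). H2afj (chromosome 6, 136808244 to 136810074, plus strand) was at 36.0 and 37.2 CPM in SO+ and at 30.0, 22.3 and 37.6 CPM in SO−. Its highest and its lowest value were both in SO− embryos (log2 fold change −0.24, SE 0.21), and the lowest rested on 25 counts.

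H3f3a and H3f3b encode the same H3.3 protein from different genes. H3f3a (chromosome 1, 180800832 to 180813943, minus strand) was at 569.2 and 505.9 CPM in SO+ and at 568.1, 448.9 and 550.5 CPM in SO−. H3f3b (chromosome 11, 116021912 to 116027962, minus strand) was at 1157 and 1297 CPM in SO+ and at 1317, 1171 and 1287 CPM in SO−. Both overlapped between genotypes, with log2 fold changes of −0.03 (SE 0.12) and 0.04 (SE 0.09).

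H1f0, the gene of the linker histone H1.0, which is known to accumulate in differentiated cells, lies on chromosome 15 (79028450 to 79030504, plus strand). It was at 172.1 and 156.0 CPM in SO+ and at 203.9, 182.1 and 203.0 CPM in SO−. The SO− embryos were all above the SO+ embryos, but by 1.20-fold only (log2 fold change 0.27, SE 0.11). H1fx, the gene of H1X (chromosome 6, 87980421 to 87981637, minus strand), held 51 and 32 counts in SO+ and 4, 1 and 6 in SO−, or 1.85, 1.19, 0.974, 0.892 and 1.45 CPM in the same order. It did not pass the filter on low counts, and no difference was detectable at this depth. It is the member of the 10 that was not fitted.

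Of the 9 fitted members, 3 had every SO− embryo above every SO+ embryo, and 1 had every SO− embryo below. The same held for 14.2% and 15.1% of all tested genes. The choice of members used these values, and the counts are given without a reading. The median log2 fold change was 0.010 over the 9 members and −0.0019 over all tested genes.

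**Figure D2:**
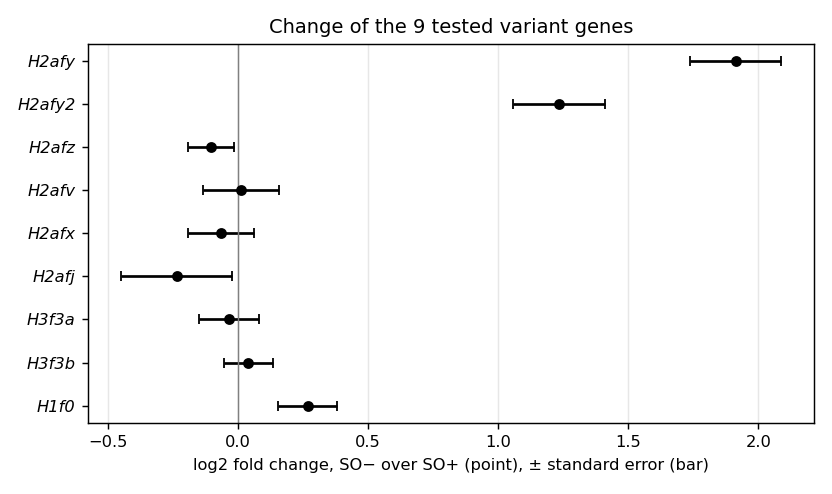
Log2 fold change of SO− over SO+ for the 9 fitted variant genes (points) with its standard error (bars), from the fit across all genes. H2afy at 1.91 and H2afy2 at 1.23 stand apart from the other 7 genes, which lie between −0.24 and 0.27.

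Levels of different genes were compared as FPKM, CPM divided by the length of the principal transcript in kilobases. In SO+ the order was H2afz (983.3 ± 40.8 FPKM, SD, n = 2), H3f3b (488.1 ± 39.6), H2afx (325.9 ± 54.3), H3f3a (189.2 ± 15.7), H2afv (116.2 ± 12.2), H1f0 (79.8 ± 5.54), H2afj (19.99 ± 0.462), H2afy2 (11.0 ± 1.26), H2afy (10.2 ± 1.95) and H1fx (1.25 ± 0.385). The macroH2A genes were thus among the lowest of the set, and between each other their SO+ levels overlapped. In SO− the first 6 places were unchanged, from H2afz at 913.8 ± 14.0 FPKM (SD, n = 3) to H1f0 at 95.5 ± 6.02, where H1f0 overlapped with H2afv. H2afy came next at 38.5 ± 1.34 FPKM, then H2afy2 at 25.8 ± 1.25, then H2afj at 16.4 ± 4.18. Both macroH2A genes had therefore passed H2afj, and H2afy had passed H2afy2. This order depends on the length: over all annotated exons, 6809 bases for H2afy against 2046 in its principal transcript, H2afy stayed in place 9 in both genotypes and H2afy2 moved from place 8 to 7. A fold change within a gene does not depend on it.

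The ratio of H2afy to H2afy2 was 0.874 and 0.975 in the SO+ embryos and 1.59, 1.52 and 1.37 in the SO− embryos, by FPKM. Every SO− ratio was above both SO+ ratios, and on the log2 scale they differed by 0.69, or 1.61-fold. Whether the ratio passes 1 depends on the length used. Over all annotated exons H2afy was 20.8% and 22.7% of the FPKM of both macroH2A genes in SO+. In SO− it was 32.3%, 31.3% and 29.2%, so by this length the ratio was below 1 in every embryo. The fold difference between genotypes does not depend on the length. Against the other variants the same shift was larger. It came to 2.03 log2 units against H2afz, 1.95 against H2afv, 2.00 against H2afx, 2.24 against H2afj, 1.97 against H3f3a, 1.89 against H3f3b and 1.67 against H1f0, without overlap of the genotypes in any of these. All these ratios share the H2afy numerator, and the choice of members used this comparison. They are therefore a description and not separate results. The ratio of H2afz to H2afv was 7.64 and 9.41 in SO+ and 7.55, 9.90 and 6.90 in SO−. That of H3f3b to H3f3a was 2.30 and 2.90 in SO+ and 2.62, 2.95 and 2.64 in SO−, so in the H2A.Z and H3.3 pairs the balance of the paralogues overlapped between genotypes.

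The macroH2A genes together made up 1.28% and 1.62% of the summed FPKM of the 6 H2A variant genes in SO+ and 4.46%, 4.70% and 4.44% in SO−. The share was small in both genotypes, at 1.45% ± 0.240 (SD, n = 2) and 4.53% ± 0.145 (SD, n = 3), and the transcripts of H2A.Z and H2A.X made up most of the rest. Over all annotated exons the means were 1.32% and 3.64%. All 10 members held 0.345% to 0.388% of each library's counts, with the SO+ values of 0.371% and 0.369% inside the SO− range.

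**Figure D3:**
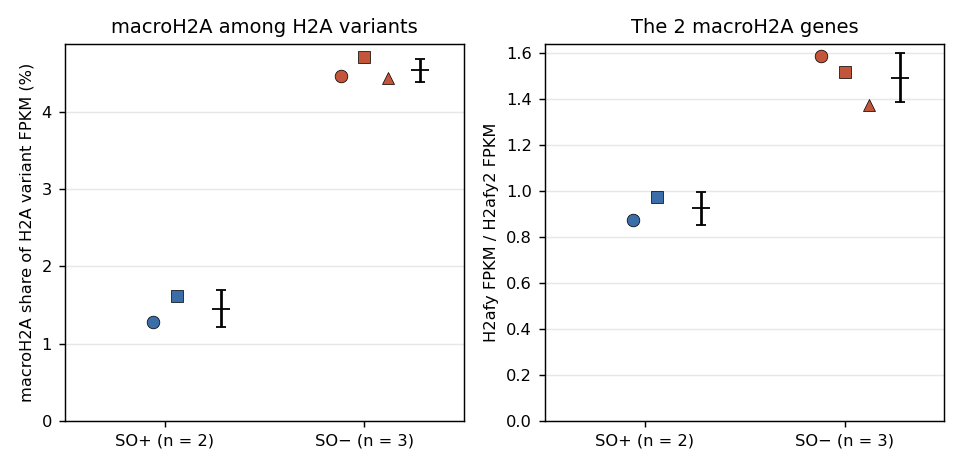
Left, share of H2afy and H2afy2 in the summed FPKM of the 6 H2A variant genes (%); right, ratio of H2afy to H2afy2 FPKM; points are embryos, and the bars show mean ± SD for SO+ (n = 2) and SO− (n = 3). The share is 1.28% to 1.62% in SO+ and 4.44% to 4.70% in SO−. By principal transcript length the ratio is below 1 in both SO+ embryos and above 1 in all SO− embryos. Over all annotated exons the ratio is below 1 in every embryo.

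The tested genes whose log2(CPM + 1) over the 5 embryos was most like that of H2afy, among those whose log2 CPM averaged 3 or more, were H2afy2, Parp10, Flt1, Crot and Psmb10. Their Pearson r was 0.994 to 0.995, a description over 5 embryos in which all of these genes share the split by genotype. Parp10, an ADP-ribosyltransferase, was at 7.29 and 10.1 CPM in SO+ and at 29.5, 24.99 and 28.9 CPM in SO−. Flt1, a VEGF receptor, was at 16.3 and 24.6 CPM in SO+ and at 71.9, 63.4 and 62.0 CPM in SO−. Crot, a peroxisomal carnitine acyltransferase, was at 38.5 and 55.6 CPM in SO+ and at 141.3, 153.5 and 140.6 CPM in SO−. Psmb10, a subunit of the immunoproteasome, was at 64.8 and 71.3 CPM in SO+ and at 135.9, 132.1 and 144.0 CPM in SO−. In all 4 the higher SO+ value was that of embryo 2, as for H2afy. Choosing genes by their correlation with H2afy favours this order, so nothing is read from it.

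Genes known to bind macroH2A or to regulate the splicing of its transcript were counted next. Of 8 such genes, 0 passed in either direction with edgeR, 0 had an unadjusted p under 0.05, and DESeq2 and limma-voom called 0. Over all 12067 tested genes edgeR called 2.35%, and 13.7% had an unadjusted p under 0.05, the shares against which each list is set. Their median log2 fold change was −0.04. The smallest adjusted p values of the edgeR quasi-likelihood test were those of the RNA helicase Ddx17 (log2 fold change −0.24, SE 0.17, adjusted p = 0.617) and of Lbr, the lamin B receptor (0.15, SE 0.12, adjusted p = 0.666).

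The machinery that exchanges H2A.Z was represented by 22 genes of the SRCAP, TIP60 and INO80 complexes with the H2A.Z chaperone Anp32e, of which 0 were called by edgeR, DESeq2 or limma-voom and 2 had an unadjusted p under 0.05 with edgeR (13.7% over all genes). The median log2 fold change was −0.11, with 9 of 22 above 0. Ruvbl2, an ATPase shared by these complexes, was at 459.5 and 403.6 CPM in SO+ and at 325.7, 322.2 and 378.1 CPM in SO− (log2 fold change −0.33, SE 0.11, adjusted p = 0.179, edgeR). Morf4l1, a chromodomain subunit of TIP60, was at 207.6 and 240.3 CPM in SO+ and at 166.9, 199.0 and 173.9 CPM in SO− (−0.33, SE 0.12, adjusted p = 0.221, edgeR). Both genes were lower in each SO− embryo than in either SO+ embryo without passing the test.

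For H3.3 deposition, 0 of 8 genes were called by edgeR, DESeq2 or limma-voom, 2 had an unadjusted p under 0.05 with edgeR (13.7% over all genes), and the median log2 fold change was 0.05. Dek, an H3.3 chaperone, was at 529.1 and 608.3 CPM in SO+ and at 472.8, 393.6 and 480.4 CPM in SO− (log2 fold change −0.33, SE 0.11, adjusted p = 0.183, edgeR). Daxx, the chaperone that works with Atrx, had a log2 fold change of −0.38 (SE 0.16, adjusted p = 0.294, edgeR). It lies on chromosome 17 at −1.6 Mb from Pou5f1. Of the H2A.X signalling genes described next, Mdc1 lies at 0.335 Mb (log2 fold change 0.019, SE 0.12, adjusted p = 0.977, edgeR). Rnf8 lies at −5.89 Mb (0.13, SE 0.23, adjusted p = 0.895, edgeR). The part of distance from Pou5f1 in these values was not tested.

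Of 14 genes of H2A.X signalling 13 were tested, 0 were called by edgeR, DESeq2 or limma-voom, and 3 had an unadjusted p under 0.05 with edgeR (13.7% over all genes). The median log2 fold change was 0.12. Eya1, a phosphatase of H2A.X, was at 0.617 and 2.30 CPM in SO+ and at 6.33, 8.92 and 4.58 CPM in SO−. Its log2 fold change of 2.11 (SE 0.68) did not pass (adjusted p = 0.157, edgeR), and without SO+ embryo 2 it was 3.32 and was called (adjusted p = 0.0438). Atr, a kinase that phosphorylates H2A.X, was at 23.8 and 21.2 CPM in SO+ and at 49.0, 25.9 and 31.1 CPM in SO− (log2 fold change 0.70, SE 0.25, adjusted p = 0.209, edgeR).

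Of 16 general histone chaperones and assembly factors 1 was called by edgeR (2.35% over all genes), 1 by DESeq2 and 0 by limma-voom. With edgeR 5 had an unadjusted p under 0.05 (13.7% over all genes). The called gene was Rbbp7, an X-linked subunit of several chromatin complexes. It was at 527.9 and 587.5 CPM in SO+ and at 800.0, 792.5 and 719.1 CPM in SO−, and it rose (log2 fold change 0.47, SE 0.10, adjusted p = 0.0274, edgeR). The call was lost with limma-voom (adjusted p = 0.0611), without SO+ embryo 1 (0.189), without SO− embryo 1 (0.281) and without SO− embryo 2 (0.195). The median of the list was −0.13, with 3 of 16 above 0. In 9 of 16 every SO− embryo was below every SO+ embryo (15.1% of all tested genes). In 1 of 16 every SO− embryo was above (14.2% of all tested genes). Chaf1b, a subunit of the chromatin assembly factor CAF-1, was at 180.4 and 184.5 CPM in SO+ and at 147.6, 126.7 and 145.7 CPM in SO− (log2 fold change −0.37, SE 0.12, adjusted p = 0.144, edgeR).

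Another 9 variant genes, mostly of germ cells, were examined, and 1 was expressed enough to test. Cenpa, the H3 variant of centromeres, was at 180.5 and 158.6 CPM in SO+ and at 186.4, 199.9 and 180.1 CPM in SO− (log2 fold change 0.15, SE 0.12, adjusted p = 0.655, edgeR).

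**Figure D4:**
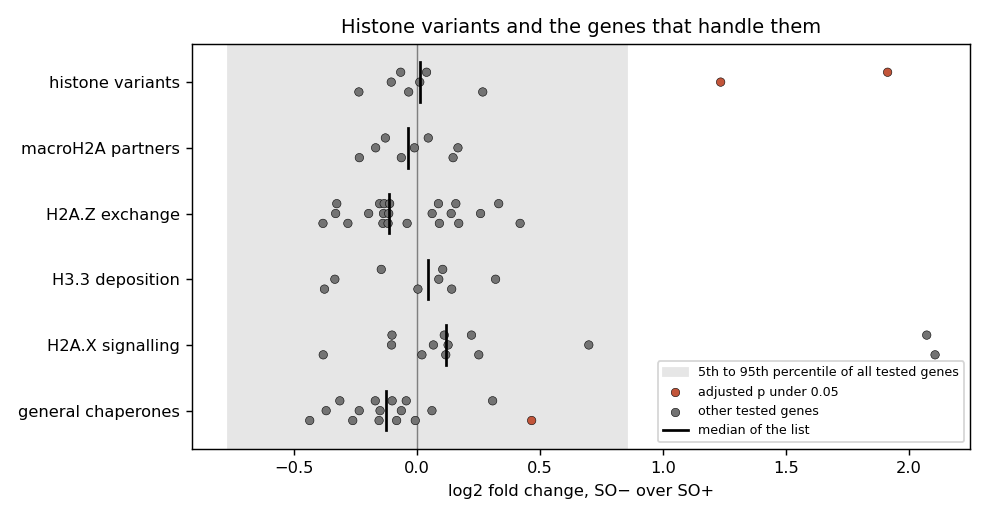
Log2 fold change of SO− over SO+ for the 9 fitted variant genes and for the tested genes of 5 lists that handle or bind them, with each gene a point, the list median a bar and the 5th to 95th percentile of all tested genes in grey. The median of each list lies between −0.13 and 0.12, and Rbbp7 at 0.47 is the called gene outside the variants.

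Cell composition was read from marker lists beside the macroH2A values. The summed level of 14 VE markers was 5130 and 5351 CPM in SO+ and 7285, 7333 and 4787 CPM in SO−. No VE marker was at 0, 12 of 14 had a log2 fold change above 0, and 0 were called by edgeR, DESeq2 or limma-voom, with 5 at an unadjusted p under 0.05 in edgeR (13.7% over all genes). The SO− embryo with the lowest VE sum of the 5 embryos had 76.7 CPM of H2afy and 59.3 CPM of H2afy2, which were the lowest and the highest SO− values of these genes. The part of VE in the macroH2A levels was not tested. The summed level of 8 epiblast markers was 5861 and 5221 CPM in SO+ and 3212, 2891 and 4102 CPM in SO−, with 3 of 8 above 0 in log2 fold change. Utf1 (log2 fold change −2.08, adjusted p = 0.000406, edgeR) and Dnmt3b (−0.99, adjusted p = 0.00392, edgeR) fell and carried the difference in the sum. The other 6 markers summed to 1371 and 1550 CPM in SO+ and to 1398, 1383 and 1641 CPM in SO−. Among them Sox2 had a log2 fold change of 0.56 (adjusted p = 0.514, edgeR) with each SO− embryo above both SO+ embryos. Fgf5 (0.38) and Epcam (0.036) were also above 0, while Pou3f1 (−0.84), Otx2 (−0.23) and Cdh1 (−0.085) were below 0. For Otx2 each SO− embryo was below both SO+ embryos. None of these 6 was called by edgeR. The part of a changed epiblast in the macroH2A levels was not tested.

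For 10 ExE markers the sum was 321.6 and 401.2 CPM in SO+ and 389.8, 476.6 and 393.3 CPM in SO−. Most of this sum came from Eomes and Rhox5. Eomes was at 209 and 253.4 CPM in SO+ and at 215.8, 276.6 and 230.1 CPM in SO−. Rhox5 was at 96.4 and 126.2 CPM in SO+ and at 138.9, 145.5 and 131.2 CPM in SO−. The paper also detected Eomes in epiblast cells, so the sum does not measure ExE alone. Of the 8 markers tested, 6 had a log2 fold change above 0 and 3 an unadjusted p under 0.05 in edgeR (13.7% over all genes). The edgeR test called 1 (2.35% over all genes), DESeq2 2 and limma-voom 1. Elf5, which defines that tissue, was at 0.109 and 0.186 CPM in SO+ and at 0.487, 0 and 2.65 CPM in SO−. Gata3 was at 0.726 and 1.19 CPM in SO+ and at 2.68, 10.7 and 3.86 CPM in SO− (log2 fold change 2.39, adjusted p = 0.148, edgeR). Hand1, which is also made by extra-embryonic mesoderm, rose (log2 fold change 3.04, SE 0.52, adjusted p = 0.00754, edgeR), while Ascl2 (−0.53) and Rhox6 (−0.25) had values below 0 and were not called. The part of ExE in the macroH2A levels was not tested. The sum of 10 maternal and blood markers was 0.892 to 4.90 CPM. Y-linked genes had counts in all 5 embryos, and Xist ranged from 1.22 to 18.8 CPM with overlap of the genotypes. Of 5 sex-linked genes 0 were called by edgeR, DESeq2 or limma-voom. In edgeR 1 had an unadjusted p under 0.05 (13.7% over all genes).

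Near copies can take reads from a member. At 90% identity over 150 bases, H2afy, H2afv, H1f0 and H1fx had no similar gene, and the pseudogene H2afy3 of H2afy2 held 1 count in the 5 libraries. H3f3a had 42 similar genes, 41 of them pseudogenes. Of these 41, 25 were among the counted genes, and their counts came to 1.20% to 1.64% of its own. The others have no counts to compare. For H3f3b 2 of 3 pseudogenes were counted, and their counts came to 0.185% to 0.487% of its own. H2afz had 6 similar genes, among them the pseudogene Gm8203 (100% identity, 0 counts) and the gene Tmcc1 (99.9% over 682 bases, 574 and 630 counts in SO+ and 70, 28 and 96 in SO−). The levels of H2afz, H3f3a, H3f3b, H2afx and H2afj are uncertain by what such copies could split off. On the opposite strand, H2afy shares 501 exon bases with Gm47071, which was not among the counted genes. H2afy2 shares 233 with Aifm2, which held at most 14 counts in a library. Whether the counting used strand is not given in the sources used here, so reads of such partners cannot be told apart.

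Promoters were read from RefSeq (GRCm38.p6) for 9 of the 10 members, 250 bases before to 50 after the start, and searched on both strands. The octamer ATGCAAAT, the sequence bound by Oct4 and its relatives, was in the H3f3b window and in none of the other 8, against 1.74% of 32851 promoters. H2afy held the GC box GGGCGG (35.7% of all promoters) and no CCAAT box, while H2afy2 held CCAAT (37.4% of all) and no GC box. The H2afy window was 74.3% G and C and that of H2afy2 65.7%, against a median of 52.7%. A match describes these letters in this window and is not a binding site.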

How the data were processed

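Single embryos were profiled by SmartSeq2, without molecular identifiers, so amplified copies count as reads. The authors trimmed reads with cutadapt, aligned them to GRCm38 with STAR and counted them per gene with HTSeq-count. They deposited 1 table of raw counts. The strand setting is not given in the sources used here. SO+ libraries carried one sequencing index and SO− libraries another, so index and genotype cannot be told apart.

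From the deposited counts, SO− and SO+ were compared with the edgeR (4.0.16) quasi-likelihood test in R 4.3.3, with TMM scaling, filterByExpr, Benjamini-Hochberg adjustment over 12067 genes and a threshold of 0.05. The study used DESeq2, which was run as an alternative (1.42.0), as were limma-voom (3.58.1), other scalings and filters, robust dispersion, a replicate block and leaving out each embryo. The length of all annotated exons was added after seeing the data. Copies were sought with blastn (2.17.0). The scripts were tested on simulated data. The members and lists were chosen with earlier results of these data known. Genes named were the 10 members, Pou5f1, in each list those under the threshold and, where these were fewer than 2, the 2 with the smallest adjusted p, sex-linked genes, and the 5 genes most correlated with H2afy. Of the marker lists, the named genes were picked after their values were seen. Mdc1 and Rnf8 were named for their distance from Pou5f1. Embryos are separate animals.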

Additional observations from a re-analysis of the deposited data

How the results depend on the processing

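The log2 fold change of H2afy was 1.88 to 1.96 over 9 alternatives and 1.73 to 2.12 without single embryos, and that of H2afy2 1.20 to 1.25 and 1.117 to 1.353. The contrast that chose them is the same, so this is a description and no support. The members called higher numbered 2 in each alternative and 1 to 2 without an embryo. Over all genes 283 calls became 91 with limma-voom, 929 with the replicate block and 35 to 573 without an embryo (35 without SO− embryo 2, 46 without SO− embryo 1, 180 without SO+ embryo 1, 573 without SO+ embryo 2). Over the 6 other lists 1 call became 0 with limma-voom, 6 with the replicate block and 0 to 2 without an embryo. Embryo numbers shared by the genotypes name different animals and gave deviation correlations of 0.0257 and 0.174. With 2 SO+ embryos the crossed pairs must give the same values with the sign reversed (−0.0257 and −0.174). These values therefore cannot decide whether embryos shared a litter or batch, and the replicate block is given as an alternative only. H2afv changed sign with upper-quartile scaling (−0.0067), no filter (−0.024), at least 10 counts in every embryo (−0.0044) and the replicate block (−0.12). Without single embryos H2afv ran from −0.10 to 0.13, H2afx from −0.23 to 0.11, H3f3a from −0.12 to 0.055 and H3f3b from −0.048 to 0.12. The call of Pou5f1 was lost with limma-voom (log2 fold change −4.36, adjusted p = 0.0639) and robust dispersion (−4.43, 0.0988). The cause was not tested. SO− depth limits H1fx and H2afj most.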
